A study of Mus musculus with 16 samples.

Results

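The insulin-like growth factor (IGF) binding proteins were followed across 16 whole-kidney RNA libraries from male C57BL/6 mice aged 12 weeks. The 9 genes were Igfbp1 to Igfbp7, the ligand gene Igf1 and the receptor gene Igf1r, of 40472 genes in the deposited table, and all 9 were found by their Ensembl IDs. Igfbp2 had been chosen by its far higher counts in injured than in uninjured kidney in these same libraries. Its counts in the injured and uninjured groups are therefore given as a description, with no test. The other 8 genes came with it as members of the same system, and of the 9, 8 passed the filter on low counts, which Igfbp1 did not.

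Mice that underwent renal ischemia reperfusion, in which blood flow is stopped and restored, had received PJ34 (IRP) or vehicle (IRV). PJ34 inhibits PARP enzymes, which attach ADP-ribose chains to proteins at damaged DNA. Uninjured mice had received PJ34 (NP) or vehicle (NV). Each group held 4 libraries of poly(A)-selected RNA. The study's question was what the inhibitor does long after such an injury. The labels give neither the dose nor the day of collection, and do not state whether each library is 1 animal. The p-values thus rest on the spread among libraries.

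IGF1 and IGF2 signal through the IGF1 receptor, a tyrosine kinase upstream of the PI3K and AKT kinases. Most IGF in blood and tissue is held by binding proteins, which carry it, keep it from the receptor, or release it when a protease cuts them. In kidney, Igfbp5 and Igfbp7 are known from glomerular, vascular and stromal cells, and Igf1 in injured tissue is made by macrophages and stromal cells as well as by epithelium.

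Total counts ran from 973812 to 6169748 per library. Deep libraries, with 4963638 to 6169748 counts, were the whole IRP group and replicates 3 and 4 of IRV. Shallow libraries, with 973812 to 1659983, were replicates 1 and 2 of IRV and the whole NP and NV groups. Olfactory, vomeronasal and related receptor genes, 1719 in all, summed to 239.7 to 500.2 CPM (counts scaled to a common library size) in the deep libraries and 6215 to 11000 CPM in the shallow ones. For IRP against NP, depth and injury cannot be told apart within the pair, since no IRP library is shallow and no NP library is deep. Any other difference between the deep and shallow sets cannot be told apart from depth, so depth below names the set of libraries. Some fits below add the depth set as a covariate. Only IRV holds both depths, so that term is set by IRV alone. With it, IRV against NV compares the shallow IRV libraries with NV, as does the fit within the shallow libraries. IRP against IRV likewise compares IRP with the deep IRV libraries. Such pairs of fits are nearly the same comparison and not separate checks. Values below are CPM after TMM scaling, which sets most genes level between libraries. When counts were scaled by library total alone, the median log2 fold change of all tested genes moved by 0.58 for IRP against NP and by 0.52 for IRV against NV. The calls then split into 7012 higher and 1778 lower genes for IRP against NP, beside 2671 and 3264 with TMM. For IRV against NV they split into 5716 higher and 246 lower, beside 2162 and 1511.

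The 250 bases before the transcription start are printed for the 5 binding proteins on which the results turn, from the RefSeq table of build GRCm38.p6, 5′ to 3′ on the gene's strand. All 9 genes had a window in that table, and Igfbp2 had 2, of which the one at the lower coordinates is printed. Igfbp2 (chr1:72824230-72824479, plus strand) and Igfbp5 (chr1:72874866-72875115, minus strand) lie side by side on chromosome 1. Igfbp1 (chr11:7197537-7197786, plus strand) and Igfbp4 (chr11:99040994-99041243, plus strand) are on chromosome 11, and Igfbp7 (chr5:77408046-77408295, minus strand) is on chromosome 5. Capitals mark GC box cores (GGGCGG, either strand) in Igfbp2 and Igfbp7, the TATA box TATAAA in Igfbp4, TATTTAAAA in Igfbp5, and CAAAACAAACTTATTTTG in Igfbp1.
Igfbp2: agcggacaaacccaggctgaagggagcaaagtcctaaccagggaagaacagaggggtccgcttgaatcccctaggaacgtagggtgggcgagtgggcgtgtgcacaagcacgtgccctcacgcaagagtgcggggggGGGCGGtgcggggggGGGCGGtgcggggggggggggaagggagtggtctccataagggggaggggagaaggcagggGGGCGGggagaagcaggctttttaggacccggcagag
Igfbp7: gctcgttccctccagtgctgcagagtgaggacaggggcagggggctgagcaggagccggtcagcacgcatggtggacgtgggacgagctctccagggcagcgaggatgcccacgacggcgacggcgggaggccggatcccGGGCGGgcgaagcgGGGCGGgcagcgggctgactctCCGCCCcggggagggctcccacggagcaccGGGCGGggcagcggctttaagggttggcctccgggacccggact
Igfbp4: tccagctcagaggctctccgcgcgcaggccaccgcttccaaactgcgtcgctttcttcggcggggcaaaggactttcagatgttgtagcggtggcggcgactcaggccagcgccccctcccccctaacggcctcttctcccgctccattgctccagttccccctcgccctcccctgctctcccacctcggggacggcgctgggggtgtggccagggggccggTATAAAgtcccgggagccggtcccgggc
Igfbp5: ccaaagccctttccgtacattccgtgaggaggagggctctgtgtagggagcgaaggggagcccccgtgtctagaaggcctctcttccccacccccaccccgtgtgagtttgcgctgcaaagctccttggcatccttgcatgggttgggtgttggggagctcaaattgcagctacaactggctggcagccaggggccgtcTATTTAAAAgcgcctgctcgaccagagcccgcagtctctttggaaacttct
Igfbp1: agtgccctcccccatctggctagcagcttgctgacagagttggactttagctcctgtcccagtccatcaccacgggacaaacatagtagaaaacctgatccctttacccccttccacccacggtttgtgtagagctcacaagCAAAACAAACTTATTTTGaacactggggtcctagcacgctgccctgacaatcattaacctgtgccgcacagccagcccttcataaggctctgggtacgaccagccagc

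The printed Igfbp2 and Igfbp7 windows were GC-rich and held no TATAAA on either strand. The printed Igfbp2 window had a GC content of 67.2% with 3 GC box cores, and the Igfbp7 window 74% with 4, against a median GC content of 52.4% over 32851 mouse windows. The other Igfbp2 window (chr1:72825137-72825386, plus strand) had a GC content of 56.4%, with 0 GC box cores and 1 forkhead core (AAACAA). A GC box core occurred in 32.7% of those windows, so it is a common feature. The Igfbp4 window held TATAAA 28 bases before the start, as did 12.4% of all windows at any position. The Igfbp5 window held TATTTAAAA 51 bases before the start, which 0.694% of windows hold, a word picked after its sequence was read. The stretch CAAAACAAACTTATTTTG lay 108 bases before the start in Igfbp1. Its ends were set around the forkhead core AAACAA with the window in view, so how often it occurs elsewhere says nothing, while the core itself is in 18.3% of all windows. It matches the insulin response element known from the IGFBP1 gene, which FOXO factors bind and insulin signalling represses. These matches describe letters and not bound sites.

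Igfbp2, whose protein binds both IGFs and also integrins, was almost without counts in uninjured kidney and present in every injured library. Its level was 19.9, 8.15, 12.0 and 17.2 CPM in IRP replicates 1 to 4 and 9.25, 8.51, 12.2 and 7.93 CPM in IRV replicates 1 to 4. In NP it was 0.744 CPM in replicate 2 and 0 in the other 3 libraries, and in NV it was 0.855 and 0.772 CPM in replicates 1 and 4 and 0 in replicates 2 and 3. The injured and uninjured libraries did not overlap, and both shallow IRV libraries lay beside the deep ones.

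In counts, Igfbp2 had 400 in IRP and 1 in NP, a ratio of 68.3 after scaling with an exact 95% interval of 12.2 to 2703. It had 171 counts in IRV and 2 in NV, a ratio of 22.6 with an interval of 6.16 to 188. The intervals cover counting error only and are wide, since the uninjured groups hold 1 and 2 counts. These are the values that chose the gene, so the intervals describe the precision of the ratios and are no test of a difference.

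**Figure D1:**
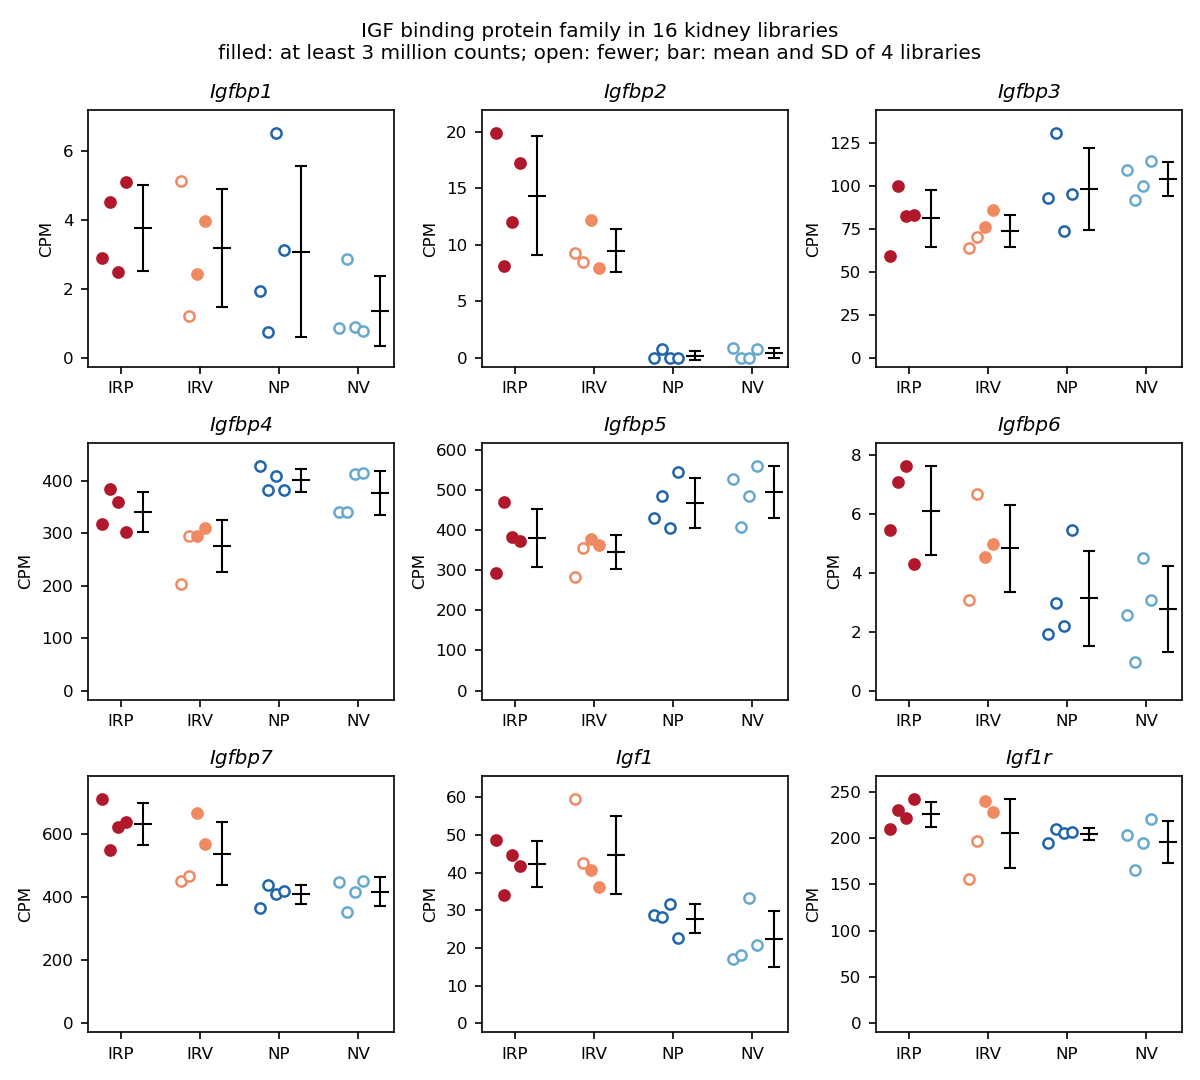
Level in CPM (vertical axes, from 0, a separate scale for each gene) of the 9 genes in the 16 libraries, with the groups IRP, IRV, NP and NV from left to right. Filled points are deep libraries of at least 3000000 counts, open points shallow ones, and the black bar with whiskers is the mean ± SD of 4 libraries. Igfbp2 is near 0 in all 8 uninjured libraries and at 7.93 CPM or more in all 8 injured ones, while the IRV and NV points of Igf1r overlap.

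Among IRP libraries, Igfbp2 was lowest in replicate 2 and highest in replicate 1. Replicate 2 also had the lowest summed level of IRP libraries for markers of fibroblasts and mural cells (980.7 CPM, against 1812 to 2548 CPM in the other 3), macrophages (395.3 CPM, against 713.4 to 1017) and injured tubule (2318 CPM, against 3079 to 4239). Its proximal tubule markers were the highest, at 7060 CPM, against 3704 to 4823 CPM. In IRV, replicate 3 had the highest Igfbp2 (12.2 CPM) and the highest fibroblast and mural, macrophage and injured tubule sums (2151, 880.0 and 3856 CPM). The lowest Igfbp2 of that group was in replicate 4 (7.93 CPM), while replicate 2 (8.51 CPM) had the lowest of these sums (1377, 511.8 and 2902 CPM). In replicate 4 the sums were 1594, 689.3 and 3812 CPM, the last of them close to that of replicate 3.

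The genes whose pattern over the 16 libraries was closest to that of Igfbp2 were Ctss, a lysosomal cysteine protease, Cd74, the invariant chain of MHC class II, H2-Ab1, an MHC class II chain, Mgp, matrix Gla protein, and Vcam1, an adhesion molecule. Their root mean square difference from Igfbp2 in centred log2 CPM was 0.53 for Ctss, 0.54 for Cd74, 0.55 for H2-Ab1, 0.59 for Mgp and 0.59 for Vcam1. The median over all tested genes was 2.02. Since they were picked for likeness to Igfbp2, higher levels in injured kidney follow from the choice and are given as a description. Cd74 averaged 707 ± 259 CPM in IRP, 674 ± 212 in IRV, 63.9 ± 5.07 in NP and 54.7 ± 15.97 in NV, and Mgp averaged 212 ± 81.0 CPM in IRP, 197 ± 38.1 in IRV, 24.9 ± 7.70 in NP and 18.8 ± 5.98 in NV (SD, n = 4).

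Igf1, the ligand, was higher after injury under both treatments. It stood at 48.6, 34.1, 44.8 and 41.8 CPM in IRP, against 28.8, 28.3, 31.5 and 22.6 CPM in NP. Under vehicle it stood at 59.6, 42.5, 40.6 and 36.1 CPM in IRV, against 17.1, 18.2, 33.3 and 20.8 CPM in NV. The injured and uninjured libraries did not overlap in either pair, and the highest of all was the shallow IRV replicate 1.

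The log2 fold change of Igf1 was 0.62 ± 0.19 (SE) for IRP against NP (adjusted p = 0.0165, edgeR quasi-likelihood test with Benjamini-Hochberg adjustment over 13614 genes). For IRV against NV it was 0.95 ± 0.21 (adjusted p = 0.00276, edgeR). With the depth set as a covariate, the value for IRV against NV was 1.17 (adjusted p = 0.00376, edgeR), and within the shallow libraries it was 1.16 (adjusted p = 0.00333, edgeR), with 2 IRV libraries. The call for IRP against NP did not hold with the covariate (1.01, adjusted p = 0.0687, edgeR), where depth can be estimated only through IRV. It was also lost when IRP replicate 1, 3 or 4 or NP replicate 4 was left out, at 0.47, 0.50, 0.54 and 0.52 (adjusted p 0.0582 to 0.0883, edgeR).

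Igfbp7, a secreted protein of vessels and stroma with low affinity for IGFs, had the highest mean level of the 9 in CPM in both injured groups, while Igfbp5 did in NP and NV. It measured 712, 551, 623 and 639 CPM in IRP, against 365, 439, 409.9 and 420.2 CPM in NP. The IRP libraries lay above all NP libraries, and the log2 fold change was 0.63 ± 0.14 (adjusted p = 0.00172, edgeR). Under vehicle it measured 450.2 and 466 CPM in the shallow IRV replicates and 666 and 567 CPM in the deep ones, against 449, 352, 415 and 450.2 CPM in NV.

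Within IRV, Igfbp7 thus followed the depth set: the shallow replicates were at the level of the highest NV library and the deep ones at that of IRP. The log2 fold change for IRV against NV was 0.37 ± 0.14 (adjusted p = 0.0558, edgeR), and 0.13 within the shallow libraries (adjusted p = 0.690, edgeR). Without the shallow IRV replicate 1 it was 0.44 and passed (adjusted p = 0.0219, edgeR). With the covariate, IRP against NP gave 0.20 (adjusted p = 0.674, edgeR). The higher Igfbp7 level in IRP cannot be told apart from the depth set.

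The related Igfbp3, Igfbp4 and Igfbp5, which bind IGFs with high affinity, had lower levels in IRV than in NV. Igfbp4, which is cut by the protease PAPP-A, measured 318, 384, 360.2 and 302 CPM in IRP and 202, 295, 295 and 309 CPM in IRV, against 429, 382, 409 and 383 CPM in NP and 341, 339.5, 412 and 415 CPM in NV. All IRV libraries lay below all NV libraries, and IRV replicate 1 was the lowest of the 16. The log2 fold change for IRV against NV was -0.45 ± 0.14 (adjusted p = 0.0211, edgeR), -0.59 with the depth covariate (adjusted p = 0.0209, edgeR) and -0.59 within the shallow libraries (adjusted p = 0.0315, edgeR).

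Igfbp5, which also binds extracellular matrix, measured 293, 469, 383 and 372 CPM in IRP and 282, 356, 378 and 362 CPM in IRV. It measured 430.5, 484, 405 and 545 CPM in NP and 527, 407, 485 and 558 CPM in NV. IRV and NV did not overlap, whereas IRP replicate 2 reached the NP range. The log2 fold change for IRV against NV was -0.52 ± 0.15 (adjusted p = 0.0181, edgeR), and -0.63 both with the covariate and within the shallow libraries (adjusted p = 0.0310 and 0.0253, edgeR).

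Igfbp3, the main IGF carrier in blood, measured 63.7, 70.5, 76.0 and 85.8 CPM in IRV, against 109, 91.8, 99.9 and 114 CPM in NV. These groups did not overlap, but the log2 fold change of -0.47 ± 0.17 was just short of the threshold (adjusted p = 0.0504, edgeR). With the depth covariate it was -0.63 and did not pass (adjusted p = 0.0630, edgeR), and within the shallow libraries it was -0.63 and passed (adjusted p = 0.0375, edgeR). It also passed without the deep IRV replicate 4, at -0.63 (adjusted p = 0.0290, edgeR). In IRP it measured 59.2, 99.6, 82.5 and 82.9 CPM, against 93.2, 131, 73.9 and 95.3 CPM in NP, with overlap.

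For IRP against NP none of these 3 passed, at -0.29 ± 0.17 for Igfbp3, -0.23 ± 0.13 for Igfbp4 and -0.30 ± 0.15 for Igfbp5 (adjusted p = 0.176, 0.174 and 0.124, edgeR). Without IRP replicate 2 the Igfbp5 value was -0.42 and passed (adjusted p = 0.0323, edgeR). The falls are relative to the bulk of genes. When scaled by library total alone, the values for IRV against NV were 0.04 for Igfbp3, 0.07 for Igfbp4 and -0.01 for Igfbp5, so the first pair changed sign, and the median of all genes moved up by 0.52. The call for Igfbp4 was lost without NV replicate 3 or 4 (-0.40 each, adjusted p = 0.0631 and 0.0646, edgeR), and that for Igfbp5 without NV replicate 4 (-0.46, adjusted p = 0.0587, edgeR).

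**Figure D2:**
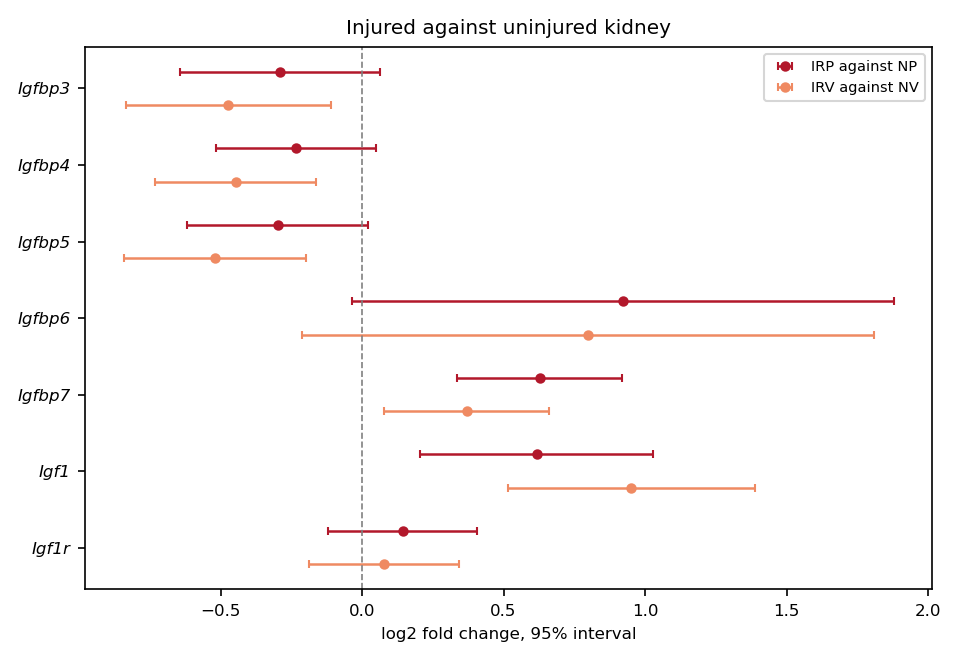
Log2 fold change with its 95% interval (horizontal axis) for the 7 tested members other than Igfbp2, with IRP against NP above IRV against NV for each gene. Igf1 lies above 0 in both comparisons, and Igfbp4 and Igfbp5 lie below 0 in IRV against NV, where their adjusted p-values were 0.0211 and 0.0181.

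**Figure D3:**
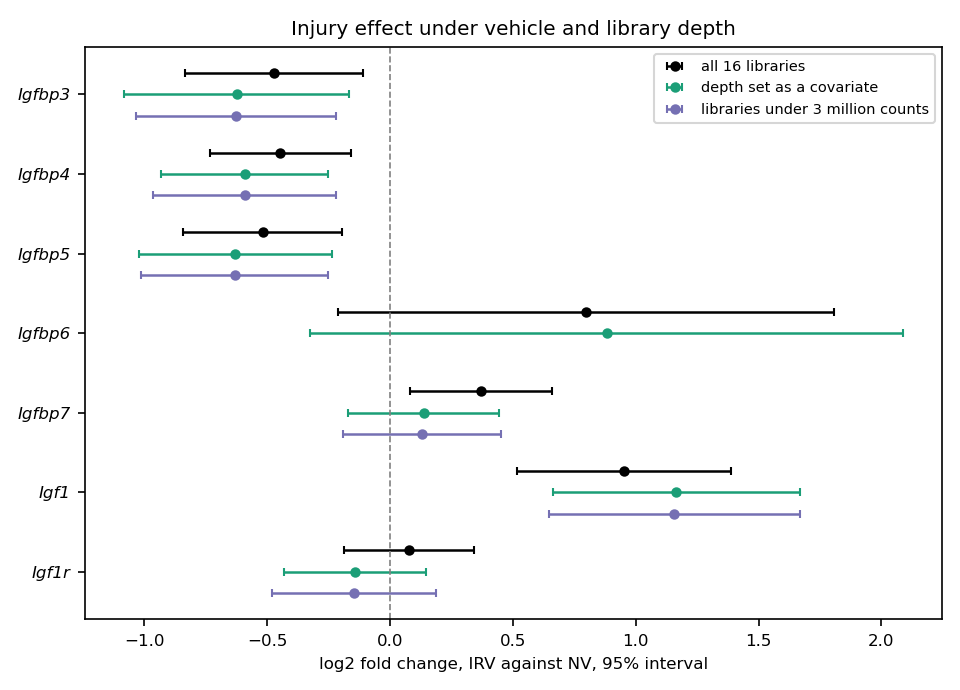
Log2 fold change of IRV against NV with its 95% interval (horizontal axis) when all 16 libraries are used, with the depth set as a covariate, and within the libraries under 3000000 counts, from top to bottom for each gene. Igf1, Igfbp4 and Igfbp5 keep their side of 0 in all 3 fits, while Igfbp7 is at 0.37 over all libraries and at 0.13 in the shallow ones. The lower 2 fits both rest on the shallow IRV libraries and are not separate checks. Igfbp6 was not tested in the shallow libraries.

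Igf1r, the receptor, did not pass the test after injury. It measured 210.2, 230.1, 221 and 242 CPM in IRP, against 195, 209.8, 206 and 207 CPM in NP, which did not overlap. It measured 156, 197, 240.0 and 228 CPM in IRV, against 203, 165, 194 and 220.1 CPM in NV, with the shallow IRV libraries lowest. The log2 fold change was 0.14 for IRP against NP (95% interval -0.12 to 0.41, adjusted p = 0.371, edgeR) and 0.08 for IRV against NV (-0.19 to 0.34, adjusted p = 0.677, edgeR).

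Igfbp6, which prefers IGF2, was low everywhere. It averaged 6.11 ± 1.52 CPM in IRP and 4.83 ± 1.48 in IRV, against 3.13 ± 1.62 in NP and 2.78 ± 1.46 in NV (SD, n = 4). The groups overlapped, and the log2 fold changes of 0.92 ± 0.45 for IRP against NP and 0.80 ± 0.48 for IRV against NV did not pass (adjusted p = 0.112 and 0.226, edgeR). NP held 15 counts in all and NV 13. Without NP replicate 4 the value for IRP against NP was 1.34 and passed (adjusted p = 0.0480, edgeR), and with library totals the values were 1.47 and 1.31 and both passed (adjusted p = 0.0110 and 0.0396, edgeR).

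Igfbp1, which insulin represses in liver, fell under the filter, with 98 counts in IRP, 55 in IRV, 13 in NP and 6 in NV. Its level was 2.90, 4.53, 2.50 and 5.11 CPM in IRP and 5.14, 1.22, 2.41 and 3.96 CPM in IRV. It was 1.92, 0.744, 6.52 and 3.12 CPM in NP and 0.855, 2.87, 0.9003 and 0.772 CPM in NV, so all groups overlapped. IRV exceeded NV by 1.83 CPM on average (two-sided exact permutation p = 0.171, smallest possible 0.0286), and over the 4 pairs of groups the adjusted p-values of this exact test were 0.514 to 0.657.

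Of the 7 tested members other than Igfbp2, 2 (Igfbp7 and Igf1) were higher in IRP than in NP and 0 lower, where 43.6% of all tested genes were called, 19.6% higher and 24% lower. In IRV against NV, 1 was higher and 2 were lower (Igf1, then Igfbp4 and Igfbp5), where 27% of all genes were called, 15.9% higher and 11.1% lower. With 7 members, these counts describe the family and do not set it apart from other genes. Their median log2 fold change was 0.14 for IRP against NP and 0.08 for IRV against NV, beside -0.01 and -0.03 over all tested genes. With the depth covariate, 0 of the 7 passed for IRP against NP, where 3.31% of all genes were called (2.52% higher). For IRV against NV the same 3 genes passed, 1 higher and 2 lower, where 14.1% were called, 7.93% higher and 6.13% lower. Within the shallow libraries 1 of 6 tested was higher and 3 were lower, where 13.3% were called, 6.49% higher and 6.83% lower. Of the same 7, the groups did not overlap in CPM for 3 in IRP against NP, where 40.8% of all genes do not overlap, and for 5 in IRV against NV, where 26.9% do not. Among these 5, Igfbp7 was nearly a tie, with its lowest IRV library at 450.223 CPM and its highest NV library at 450.177 CPM.

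Ratios of counts within a library do not depend on scaling. Igf1 had 11.7 ± 3.81 counts for every 100 Igfbp5 counts in IRP and 13.5 ± 5.21 in IRV, against 6.12 ± 1.54 in NP and 4.58 ± 1.61 in NV (SD, n = 4). The lowest IRV ratio, 9.96, was above the highest NV ratio, 6.87, while the lowest IRP ratio, 7.26, was under the highest NP ratio, 7.80. Igfbp7 had 174 ± 51.9 counts for every 100 Igfbp5 counts in IRP and 156 ± 18.8 in IRV, against 88.5 ± 10.2 in NP and 84.4 ± 2.57 in NV, with no overlap between injured and uninjured libraries. Igfbp4 to Igfbp5 was at 91.3 ± 12.8 in IRP, 79.5 ± 5.91 in IRV, 87.4 ± 15.3 in NP and 76.8 ± 9.36 in NV. Its injured and uninjured libraries overlapped, from 64.7 in NV replicate 1 to 108.3 in IRP replicate 1. In the ratio of Igfbp7 to Igfbp5, the shallow IRV libraries, at 159.9 and 130.7, also lay above every NV library, the highest of which was at 86.4. This ratio also holds the lower Igfbp5 level. Within the shallow libraries the log2 fold change for IRV against NV was -0.63 for Igfbp5 and 0.13 for Igfbp7.

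Per kilobase of transcript, the order of levels was Igfbp7, Igfbp4, Igfbp5 and Igfbp3 in all 4 groups. Igfbp7 had 526 ± 55.3 CPM per kilobase in IRP, 448 ± 83.5 in IRV, 340.4 ± 26.1 in NP and 347 ± 38.3 in NV. Igf1 and Igf1r followed and changed places: Igf1 had 25.3 ± 3.68 and Igf1r 19.8 ± 1.18 CPM per kilobase in IRP, while Igf1 had 13.4 ± 4.47 and Igf1r 17.2 ± 2.01 in NV. Igf1 and Igf1r were within their spread of each other in NP and NV. Igfbp2 ranked in place 7 in both injured groups, with 10.97 ± 4.03 CPM per kilobase in IRP and 7.25 ± 1.46 in IRV, and last in NP and NV.

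Several lists of cell markers changed after injury, in comparisons where 43.6% (IRP against NP) and 27% (IRV against NV) of all genes were called. Injured tubule markers (8 of 8 tested higher in both injury comparisons) summed to 2318 to 4239 CPM in IRP and 2902 to 3856 in IRV, against 716 to 782 in NP and 657 to 849.9 in NV. Macrophage markers (7 of 7 higher) summed to 395 to 1017 CPM in IRP and 512 to 880.0 in IRV, against 60.5 to 122 in NP and 65.0 to 94.0 in NV. Fibroblast and mural markers (7 of 9 higher) summed to 981 to 2548 CPM in IRP and 1377 to 2151 in IRV, against 304 to 427 in NP and 192 to 391 in NV. Proximal tubule markers were lower, 7 of 8 in IRP against NP and 8 of 8 in IRV against NV, with sums of 3704 to 7060 CPM in IRP and 3600 to 5178 in IRV, against 8351 to 10690 in NP and 7937 to 9733 in NV. Podocyte markers (6 of 6 higher in both) summed to 769 to 829 CPM in IRP and 622 to 956 in IRV, against 431 to 449 in NP and 393 to 489.9 in NV. Endothelial markers (3 of 8 higher in both) summed to 441 to 491 CPM in IRP and 393 to 517 in IRV, against 347 to 407 in NP and 301 to 398 in NV. When depth was a covariate, IRP against NP had 5 of 8 injured tubule, 5 of 7 macrophage, 7 of 9 fibroblast and mural, 1 of 8 proximal tubule, 1 of 6 podocyte and 0 of 8 endothelial markers past the threshold. IRV against NV then had 8 of 8, 7 of 7, 7 of 9, 8 of 8, 5 of 6 and 0 of 8 in the same order. In these fits 3.31% (IRP against NP) and 14.1% (IRV against NV) of all genes passed. No member of the lists summed above was at 0 in a whole group. In the other lists, collecting duct markers had 1 of 6 higher for IRP against NP and 0 called for IRV against NV. Thick ascending limb and distal tubule markers had 2 of 5 tested lower in both, with medians of 0.14 and -0.12. Lymphocyte markers had 1 of 2 tested lower and 0 called, and hepatocyte markers 1 of 3 lower and 0 called. Adipose, adrenal and muscle markers had 2 of 2 and 1 of 2 tested higher. In bulk tissue, fewer cells of a type and less RNA per cell cannot be told apart, and the part of these markers in the changes of Igf1 and the binding proteins was not tested.

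No member passed the test for PJ34. In injured kidney, 0 of 8 tested members passed for IRP against IRV, where 0% of all genes passed in edgeR, with 1832 genes at an unadjusted p under 0.05 and 0 members by DESeq2. Over all genes DESeq2 called 5 higher and 1277 lower, and edgeR called 7 higher and 1324 lower without the deep IRV replicate 3 and 10 higher and 1308 lower without the deep IRV replicate 4. No gene passed with the depth covariate or within the deep libraries. Igfbp2 averaged 14.3 ± 5.27 CPM in IRP and 9.48 ± 1.90 CPM in IRV (SD, n = 4), with overlap, and the log2 fold change of 0.59 ± 0.32 did not pass (95% interval -0.10 to 1.27, adjusted p = 0.517, edgeR). Igfbp4, with a log2 fold change of 0.30 ± 0.13 (95% interval 0.02 to 0.58, adjusted p = 0.313, edgeR), was the only member under 0.05 before adjustment. It was at 0.17 both with the depth covariate and within the deep libraries. Igf1 was at -0.03 (95% interval -0.39 to 0.34) and Igf1r at 0.13 (-0.13 to 0.39). The value for Igf1 was 0.15 with the depth covariate.

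In uninjured kidney, 0 of 8 tested members passed for NP against NV, where 0% of all genes passed in edgeR, with 501 genes and 0 members at an unadjusted p under 0.05. By DESeq2 0 members passed, and over all genes 3 were higher and 1 was lower. Igfbp2, which is among the 8, had 1 count in NP and 2 in NV. These are too few for a fold change or for a pass, so its place in the count decides nothing. Igf1 averaged 27.8 ± 3.73 CPM in NP and 22.4 ± 7.47 in NV, with a log2 fold change of 0.31 (95% interval -0.17 to 0.79). Igfbp3, Igfbp4, Igfbp5, Igfbp7 and Igf1r were between -0.09 and 0.09 on the log2 scale. The groups overlapped for every member in both PJ34 comparisons, while 3.42% of all tested genes did not overlap in IRP against IRV and 2.43% in NP against NV.

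**Figure D4:**
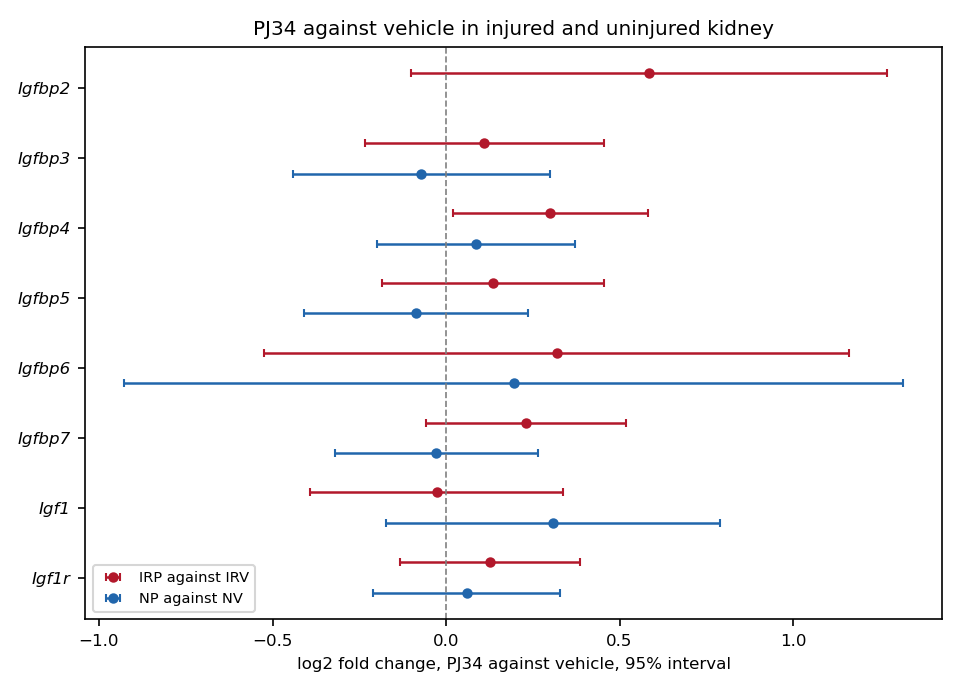
Log2 fold change with its 95% interval (horizontal axis) of PJ34 against vehicle, with IRP against IRV above NP against NV for each gene. Igfbp2 has no value in uninjured kidney, where NP held 1 count and NV 2. The interval spans 0 for every value shown except Igfbp4 in injured kidney, at 0.02 to 0.58.

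The effect of injury under PJ34 minus that under vehicle did not pass for any of the 8 tested members, with 1550 genes and 0 members at an unadjusted p under 0.05 and 0% of all genes past the threshold. For Igfbp2, which is among the 8, this difference rests on the injury values that chose it and on 1 count in NP and 2 in NV. Its result here decides nothing. The difference was 0.26 for Igfbp7 (adjusted p = 0.719), -0.33 for Igf1 (0.769), 0.21 for Igfbp4 (0.783) and 0.22 for Igfbp5 (0.815, all edgeR). That Igfbp4 and Igfbp5 passed under vehicle and not under PJ34, and Igfbp7 the reverse, was therefore not shown to differ between treatments. The 95% intervals of these differences were -0.15 to 0.67 for Igfbp7, -0.94 to 0.27 for Igf1, -0.19 to 0.62 for Igfbp4 and -0.23 to 0.67 for Igfbp5.

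Around the family, other receptors of the system did not pass. Of the insulin receptor Insr, the IGF2 and mannose 6-phosphate receptor Igf2r, and the insulin receptor-related Insrr, 0 of 3 passed in either injury comparison. For IRP against NP, Insr was at 0.20, Igf2r at 0.01 and Insrr at 0.10 on the log2 scale. For IRV against NV they were at 0.09, -0.22 and -0.13. Their medians were thus 0.10 and -0.13, beside -0.01 and -0.03 over all tested genes, which had 43.6% and 27% called. Igf2 itself did not pass the filter on low counts.

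The list of binding protein cleavage, which also holds the IGF complex partner and inhibitors of cleavage, had calls in both directions for IRP against NP alone. Of 10 tested, IRP against NP had 6 higher and 2 lower, where 19.6% of all tested genes were higher and 24% lower. IRV against NV had 5 higher and 0 lower, where 15.9% of all genes were higher and 11.1% lower. The list medians were 0.74 and 0.82 on the log2 scale. Adamts1, a secreted metalloprotease, averaged 143 ± 39.99 CPM in IRP, 139 ± 39.5 in IRV, 48.4 ± 5.55 in NP and 42.2 ± 2.70 in NV (SD, n = 4), a log2 fold change of 1.56 for IRP against NP and 1.74 for IRV against NV. Adam12, a metalloprotease that cuts IGFBP3 and IGFBP5 in human, was at 1.42 and 1.78 in these comparisons, and the serine protease Prss23 at 0.96 and 1.07. Stc2, which inhibits PAPP-A, was at 1.31 and 1.65. All 4 passed in both (adjusted p at most 0.00259, edgeR), and all 4 passed for IRV against NV within the shallow libraries too, at 1.37, 2.01, 0.85 and 1.75 for Adamts1, Adam12, Prss23 and Stc2. Stc2 did not pass with limma-voom (adjusted p = 0.124 and 0.0834). The lower pair for IRP against NP, named after their values were seen, were Pappa, the gene of PAPP-A, at -0.98 (adjusted p = 0.00684, edgeR), and the metalloprotease gene Adam28, at -3.22 (adjusted p = 0.00695, edgeR). In the fit with depth as a covariate Pappa was at -0.25 and Adam28 at 1.40, and neither passed (adjusted p = 0.805 and 0.357, edgeR), and with library totals Pappa was at -0.41 (adjusted p = 0.121, edgeR). In the covariate fit 1 of the 10, Adam12 at 1.83, passed for IRP against NP (adjusted p = 0.0310, edgeR), where 3.31% of all genes passed.

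Other proteins with an IGFBP domain had 7 tested genes, of which 4 were higher and 1 was lower for IRP against NP, and 3 were higher and 0 lower for IRV against NV. Their median was 0.52 for IRP against NP and 0.66 for IRV against NV. Over all tested genes, 19.6% were higher and 24% lower for IRP against NP, and 15.9% and 11.1% for IRV against NV. The matrix-associated Ccn2 averaged 113 ± 4.56 CPM in IRP, 105 ± 44.7 in IRV, 33.1 ± 13.7 in NP and 35.8 ± 5.30 in NV, at a log2 fold change of 1.74 and 1.59. Ccn1 was at 1.22 and 1.13, and Htra3, a serine protease, at 1.40, which did not pass (adjusted p = 0.0536, edgeR), and 2.66, which did. Esm1, an endothelial proteoglycan, was at -0.87 (adjusted p = 0.0116, edgeR) for IRP against NP and 0.09 for IRV against NV. Without NP replicate 4 the Esm1 value was -0.48 (adjusted p = 0.115, edgeR). The call for Ccn1 in IRV against NV was lost without IRV replicate 3 or NV replicate 1 or 2, at 0.87, 1.05 and 1.01. With the depth covariate, 0 of the 7 passed for IRP against NP and 1, Ccn2 at 0.91, for IRV against NV. Over all genes, 3.31% and 14.1% passed in these fits.

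Cell-surface partners of the binding proteins were mostly higher, with 7 of 8 tested for IRP against NP and 6 of 8 for IRV against NV, and 0 lower. Over all tested genes, 19.6% and 15.9% were higher in these comparisons. The medians of these partners were 1.19 and 0.88. Lrp1, a scavenger receptor that binds IGFBP3, averaged 252 ± 71.1 CPM in IRP, 241 ± 70.2 in IRV, 63.6 ± 9.45 in NP and 65.0 ± 23.7 in NV, at a log2 fold change of 1.98 and 1.89. Tgfbr2, the type II TGF-beta receptor, was at 1.61 and 1.71, Cd93, an endothelial and myeloid receptor that binds IGFBP7, at 1.56 and 1.37, and the integrin chain Itgav at 0.73 and 0.90. All 4 passed in both comparisons (adjusted p at most 0.000479, edgeR). With the depth covariate, Tgfbr2, Cd93 and Lrp1 still passed for IRP against NP, at 1.34, 1.36 and 1.68, and 5 of the 8 passed for IRV against NV. Over all genes, 3.31% and 14.1% passed in these fits.

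**Figure D5:**
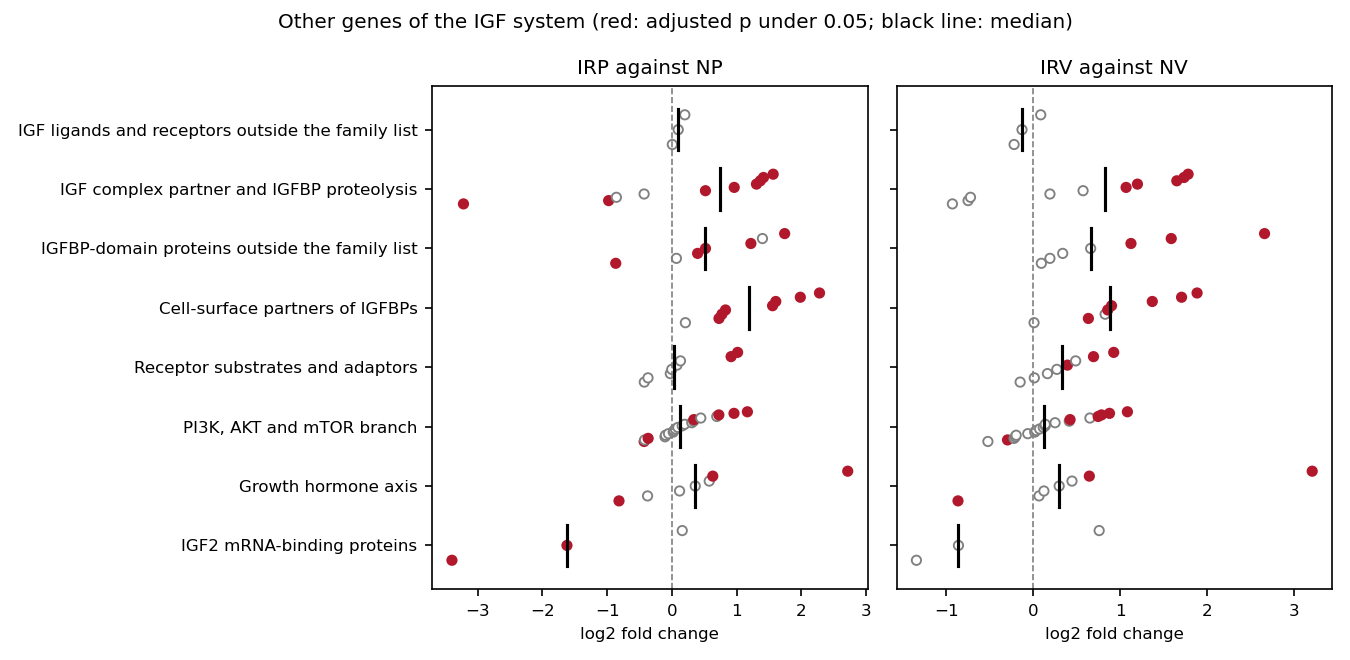
Log2 fold change (horizontal axis) of the tested genes of 8 lists of the IGF system, for IRP against NP at left and IRV against NV at right. Each point is a gene, red where its adjusted p was under 0.05, and the black line is the median of the list. Cell-surface partners lie mostly above 0, with 7 of 8 and 6 of 8 red points, and receptors outside the family list lie near 0. Over all tested genes, 43.6% and 27% were called.

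Downstream of the receptor, the lists are read beside the 43.6% and 27% of all genes called in the injury comparisons. Among receptor substrates and adaptors, 2 of 8 were higher in IRP than in NP and 3 of 8 in IRV than in NV, with 0 lower. Medians were 0.04 and 0.33. The adaptors Shc1 and Grb2 were at 1.02 and 0.92 for IRP against NP and at 0.93 and 0.69 for IRV against NV. Grb10 passed for IRV against NV alone, at 0.39 (adjusted p = 0.0328, edgeR), beside 0.08 for IRP against NP, and Gab1, at 0.49 and -0.02, did not pass. The call for Grb2 in IRV against NV was lost without IRV replicate 3 (0.56), and that for Grb10 without any of 5 libraries, IRV replicates 3 and 4 and NV replicates 1, 2 and 4, at 0.29 to 0.40. With the depth covariate, 0 of the 8 passed in either comparison, where 3.31% (IRP against NP) and 14.1% (IRV against NV) of all genes passed.

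In the PI3K, AKT and mTOR branch, IRP against NP had 4 of 20 genes higher and 2 lower, and IRV against NV had 5 higher and 1 lower. The median of the branch was 0.13 in both. Akt1, a kinase of this branch, averaged 66.2 ± 8.63 CPM in IRP, 59.2 ± 10.3 in IRV, 33.7 ± 6.88 in NP and 32.8 ± 2.82 in NV, at a log2 fold change of 0.96 and 0.88. Pik3r1, a regulatory subunit of PI3K, was at 0.73 and 0.79. Rheb, the small GTPase that activates mTOR, was at -0.37 and -0.30 with TMM and at 0.22 and 0.22 with library totals, and without any 1 of the 4 NV libraries its call in IRV against NV was lost (-0.32 to -0.27). With the covariate, 0 of the 20 passed for IRP against NP, and 3 were higher and 1 lower for IRV against NV. Over all genes, 3.31% and 14.1% passed in these fits.

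In the growth hormone axis, which drives Igf1 in liver, 2 of 7 genes were higher and 1 lower in both injury comparisons. Of all tested genes, 43.6% (IRP against NP) and 27% (IRV against NV) were called. The median was 0.36 for IRP against NP and 0.30 for IRV against NV. Socs3, an inhibitor of cytokine signalling, averaged 15.8 ± 3.67 CPM in IRP, 16.1 ± 3.06 in IRV, 2.25 ± 1.63 in NP and 1.71 ± 0.940 in NV, at a log2 fold change of 2.72 and 3.21. Jak2, the kinase bound to the growth hormone receptor, was at 0.63 and 0.65. The growth hormone receptor gene Ghr averaged 354 ± 152 CPM in IRP, 317 ± 77.9 in IRV, 623 ± 91.2 in NP and 580.0 ± 28.4 in NV, at -0.82 and -0.87 (adjusted p = 0.00971 and 0.0118, edgeR). With library totals its values were -0.28 and -0.37 and did not pass (adjusted p = 0.255 and 0.180, edgeR). Stat5b, at 0.36 and 0.12, did not pass. Under the depth covariate, Socs3 passed in both comparisons. Ghr passed for IRV against NV (-0.89, adjusted p = 0.0482, edgeR) and not for IRP against NP (-0.86, adjusted p = 0.258, edgeR). Jak2 passed in neither (adjusted p = 0.384 for IRP against NP and 0.0671 for IRV against NV, edgeR). These fits called 3.31% (IRP against NP) and 14.1% (IRV against NV) of all genes.

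The IGF2 mRNA-binding proteins had 2 of 3 genes lower in IRP than in NP, where 24% of all genes were lower. In IRV against NV 0 passed, where 27% of all genes were called. Medians of the 3 were -1.62 and -0.86. Igf2bp3 was at -3.40 and Igf2bp1 at -1.62 for IRP against NP, and at 0.23 and 0.45 with the depth covariate, where neither passed (adjusted p = 0.945 and 0.775, edgeR). The call for Igf2bp1 was lost without NP replicate 3 or 4 (-1.35 and -1.47). Igf2bp2 was at 0.16 for IRP against NP and 0.76 for IRV against NV, and the value for IRV against NV passed with the depth covariate and within the shallow libraries, at 1.12 in each (adjusted p = 0.0318 and 0.0312, edgeR). The depth set moves with the values of Igf2bp1 and Igf2bp3, which in IRV averaged 8.40 ± 7.81 and 3.95 ± 4.23 CPM (SD, n = 4).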

How the data were processed

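The authors deposited 1 table of expected counts for 16 libraries, in whole numbers and not normalised. The submitters' processing notes name Salmon 1.3.0, DESeq2 1.30.1, Trim Galore 0.6.6 and FastQC 0.11.3, and the build GRCm39. Per the labels' protocols, the libraries came from a directional kit after poly(A) selection, and the sources used here do not give the strand setting of the counting. Rounding changed none of the counts, and no 2 libraries of a group agreed within sampling noise. Gene symbols were matched by Ensembl ID for 40276 IDs.

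The filterByExpr function of edgeR (minimum count 10) kept 13614 genes. These were fitted with edgeR 4.0.16 under R 4.3.3, by its quasi-likelihood test after TMM scaling, in a single model of the 16 libraries with group as its term. Adjusted p-values are Benjamini-Hochberg values over all tested genes, with a threshold of 0.05. CPM uses TMM-scaled library sizes. Igfbp1, under the filter, was tested by exact two-sided permutation over 70 assignments. Levels per kilobase use transcript lengths of an annotation of build GRCm38.

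The members and the gene lists were chosen with earlier results of these data known. All 9 members are named, with up to 4 genes of each list by smallest p in either injury comparison, and the 5 genes closest to Igfbp2. One gene that this rule names is not reported here. The deep and shallow sets were defined from the totals of these libraries, split at 3000000 counts. Alternatives were DESeq2 1.42.0 (its size factors and its Wald test), voom of limma 3.58.1, library totals, no filter, a replicate block, the depth set as a covariate, libraries of 1 depth only, only the groups compared, and leaving out each library. The fit was tested on simulated data.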

Additional observations from a re-analysis of the deposited data

Results flagged for a closer look

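In 3 of 36 groups of 4 libraries, 1 library stood far from the other 3 by Dixon's test (critical value 0.829). For normally distributed values chance alone marks about 1 group in 20. That rate does not hold for groups of a few counts, such as those of Igfbp1 and Igfbp2 below. Igfbp1 was at 2.87 CPM in NV replicate 2, and the nearest other NV library was at 0.9003 CPM, a difference of a few counts. Igfbp2 was at 0.744 CPM, a single count, in NP replicate 2 and at 0 in the other NP libraries. Igfbp4 was at 202.5 CPM in IRV replicate 1, the library with the lowest total, and the nearest other IRV library was at 294.8 CPM.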

How the results depend on the processing

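For IRV against NV, 3 members passed in the edgeR fit, and 5 passed with DESeq2 and 5 with limma-voom, which both added Igfbp3 and Igfbp7. Over all 13614 genes, edgeR called 2162 higher and 1511 lower, DESeq2 2074 and 1559, and limma-voom 1575 and 3324. For IRP against NP, 2 passed in the edgeR fit, 4 with library totals and 4 with no filter (Igfbp6, Igfbp7, Igf1 and Igf1r in each), and 0 with the depth covariate. Over all genes, library totals called 7012 higher and 1778 lower of 13614, and no filter 5805 and 10928 of 40472. The depth covariate called 343 higher and 107 lower of 13614. These member counts do not set the family apart from other genes. Leaving out 1 library gave 1 to 4 members for IRV against NV, with 1 (Igf1) without NV replicate 4, beside 2546 to 4713 of all genes. It gave 1 to 3 members for IRP against NP, with 1 (Igfbp7) without IRP replicate 1, 3 or 4, beside 4872 to 6197 of all genes. Socs3 did not pass for IRP against NP (adjusted p = 0.0514) nor Htra3 for IRV against NV (0.396) with limma-voom. No member passed for PJ34 or the interaction under any alternative run.

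Several signs changed; the cause was not tested, beyond the shift of the median of all genes by 0.52 and 0.58 with library totals and by -0.29 and -1.07 with no filter for IRV against NV and IRP against NP. With library totals, IRV against NV was 0.043 for Igfbp3, 0.067 for Igfbp4 and 0.22 for Rheb. IRP against NP was 0.27 for Igfbp3, 0.34 for Igfbp4, 0.26 for Igfbp5 and 0.22 for Rheb, and IRP against IRV was 0.068 for Igf1. With no filter, IRP against NP was 0.15 for Igfbp3, 0.20 for Igfbp4, 0.14 for Igfbp5 and 0.068 for Rheb, IRV against NV was 0.021 for Rheb, and IRP against IRV was 0.10 for Igf1. With the depth covariate, Igf1r was -0.25 for IRP against NP, -0.14 for IRV against NV, -0.051 for IRP against IRV and -0.11 for the interaction. With it, Igf2bp3 was 0.23, Igf2bp1 0.45 and Adam28 1.40 for IRP against NP, and for IRP against IRV, Igfbp3 was -0.00065 and Igf1 0.15. Igf1r was -0.15 for IRV against NV in the shallow libraries. In the deep libraries IRP against IRV was 0.14 for Igf1 and -0.051 for Igf1r, and limma-voom gave 0.028 for Igf1.

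Leaving out 1 library gave -0.062 to 0.18 for Igf1r in IRV against NV, -0.0043 to 0.24 for Igfbp3 and -0.14 to 0.10 for Igf1 in IRP against IRV. In NP against NV it gave -0.24 to 0.037 for Igfbp3, -0.22 to 0.51 for Igfbp6, -0.10 to 0.022 for Igfbp7 and -0.012 to 0.12 for Igf1r. For the interaction it gave -0.19 to 0.54 for Igfbp6 and -0.036 to 0.14 for Igf1r. For Igfbp1 in CPM it gave -0.098 to 1.83 in IRP against NP and -0.081 to 1.23 in IRP against IRV.

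The replicate numbers did not pair the libraries: over 24 same-number pairs the correlation of deviations was -0.23 to 0.259, with 5 over 0.1, and 4 of 16 libraries correlated best with their own number. With the replicate block, 4 members passed for IRV against NV, with Igfbp3 added, and 2 for IRP against NP. Over all 13614 genes it called 2075 higher and 1600 lower for IRV against NV, and 2560 and 3245 for IRP against NP. Depth limits Igfbp1, Igfbp2 and Igfbp6, which held at most 15 counts in an uninjured group.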
